A study of Mus musculus with 16 samples.

Results

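The measure described here is the genotype by stage interaction of the Psma7 cKO oocyte transcriptome, that is, how far the change of each transcript from GV oocyte to MII egg differed between WT and Psma7 cKO. It was taken over all 16 of the 16 libraries of the series, as the Psma7 cKO minus WT difference in MII eggs less the same difference in GV oocytes, on log2 FPKM with values below 1 set to 1. FPKM gives the fragments of a transcript per kilobase of its length, scaled to the mapped fragments of the library, so it is a share of a library. A positive interaction means that Psma7 cKO stood higher against WT in eggs than it did in GV oocytes. Of 28618 entries in the deposited table, 10615 whose mean reached 1 FPKM were tested, and "past the threshold" below means an adjusted p under 0.05 in limma with Benjamini-Hochberg adjustment over all 10615.

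The study made a mouse line in which oocytes lack Psma7, the gene of the α4 subunit of the 20S proteasome core, and asked what the 20S proteasome does during oocyte maturation and the transition to the embryo. The 4 groups held 4 libraries each. Oocytes and eggs of the WT groups came from C57BL/6 females with wild-type Psma7 and no Cre, and those of the Psma7 cKO groups from females with Psma7 flox/flox and Zp3-Cre, so the floxed allele and the Cre transgene differ between the genotypes together and their effects cannot be told apart. The Zp3 promoter drives CRE in oocytes from the primary follicle onward, and the follicular cells keep Psma7. All females were 3 to 4 weeks old and received 5 IU PMSG. GV oocytes were taken 44 h later, whereas females for MII eggs received hCG at 44 h and were sampled 14 to 16 h after it, with cumulus cells removed in 0.3% hyaluronidase. Each library pooled 5 oocytes according to the labels, while the methods give a larger pool. The methods describe eggs taken from the oviduct, and the study also describes Psma7 cKO oocytes that did not complete meiosis I. The labels do not state that eggs were picked for a polar body. The replicates are pools, so the p-values measure the spread between these 16 libraries.

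A fully grown GV oocyte is transcriptionally silent and lives on stored maternal mRNA. When meiosis resumes, one class of these mRNAs receives longer poly(A) tails through short U-rich elements near the 3′ end and is translated, while another class, which serves oocyte growth, ribosomes and mitochondria, loses its tails to the CCR4-NOT deadenylase and is degraded. BTG4 recruits that deadenylase once it has been translated during maturation. The 20S core, capped by 19S regulatory particles, degrades ubiquitinated proteins and drives the meiotic divisions through the turnover of cyclin B1 and securin. Because cDNA was primed with oligo-dT, a shorter tail and a lower copy number of an mRNA cannot be told apart in these libraries, and neither can less RNA per egg and a smaller share of it.

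The targeted transcript was itself one of the readouts. Psma7 held 154, 142, 201 and 164 FPKM in WT GV oocytes and 14.6, 14.7, 11.1 and 18 FPKM in Psma7 cKO GV oocytes (replicates 1 to 4, the order used throughout). In eggs it held 118, 116, 97.7 and 172 FPKM in WT and 13.6, 50.3, 35 and 59.9 FPKM in Psma7 cKO. No library overlapped between genotypes at either stage. Its level in WT eggs was 75.3% of that in WT GV oocytes, and its level in Psma7 cKO eggs was 241% of that in Psma7 cKO GV oocytes (ratios of geometric means of the floored values). The interaction of 1.68 (SE 0.47) did not pass the threshold (adjusted p = 0.0847). It passed without cKO MII replicate 1, at 2.13 with an adjusted p of 0.0027, and that library alone lay within the range of the Psma7 cKO GV oocytes.

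The 4 Psma7 cKO egg libraries were unlike one another in 2 ways that touch the results below. Replicate 1 differed from replicates 2 to 4 in Psma7, in 4930524B15Rik and in both entries for the Mediator gene Med11 (the Med11 entries were chosen after their values were seen). Med11 entry 1 held 0.153, 4.22, 3.09 and 3.16 FPKM in the Psma7 cKO eggs and no more than 0.314 FPKM in any WT egg library. Med11 entry 2 held 12.6, 4.49, 5.68 and 3.08 FPKM in the Psma7 cKO eggs and 42.1, 42.3, 38.1 and 30.7 FPKM in the WT eggs. Neither entry passed the threshold for the interaction, which was 1.15 (SE 0.43, adjusted p = 0.177) for entry 1 and -1.99 (SE 0.56, adjusted p = 0.0863) for entry 2, and both passed without cKO MII replicate 1 (1.60 with an adjusted p of 0.00235, and -2.38 with an adjusted p of 0.0306). The second way concerned transcripts that fall during maturation, of which replicate 3 kept the most and replicate 2 the least. Some results that rest on these libraries are given with and without them, and further ones stand in the last section.

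**Figure D1:**
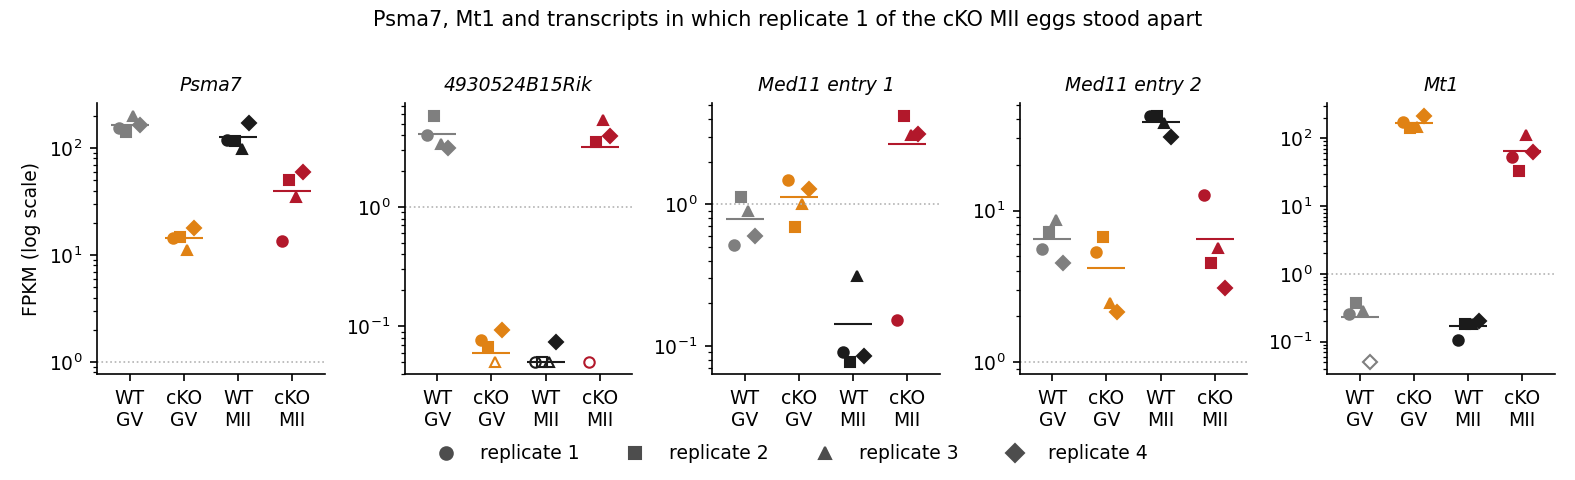
FPKM per library (log axis) of Psma7, 4930524B15Rik, both Med11 entries and Mt1 in the 4 groups, with horizontal bars at the group mean, a dotted line at 1 FPKM, and open symbols at 0.05 FPKM for values below that. Replicate 1 of the Psma7 cKO eggs lies apart from replicates 2 to 4 in the first 4 panels, whereas Mt1 is above 33 FPKM in all 8 Psma7 cKO libraries and below 1 FPKM in all 8 WT libraries.

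The libraries carried the defining transcripts of oocytes. All 12 oocyte markers examined were tested, and their summed level was 12480 to 17120 FPKM per library. Of 27 cumulus and granulosa markers in the table, 21 stayed under 1 FPKM in all 16 libraries and 6 were tested. Their summed level was 276 to 351 FPKM in GV oocytes and 452 to 565 FPKM in eggs, mostly from Serpine2, and none of the 6 passed for the interaction by limma (1 at an unadjusted p under 0.05, lower), with a median of -0.24. Ccl2, a chemokine, had the most negative estimate of the 6, -2.37 (adjusted p = 0.0888). Depth, estimated from the steps between small FPKM values, was 10.5 to 15.6 M fragments per library (median 13.7), at which 1 FPKM of a transcript of median length stands for 27.9 to 41.4 fragments.

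Few transcripts passed the threshold, and those that did were mainly maternal mRNAs that fell less in Psma7 cKO. A transcript that did not pass is not thereby shown to have changed alike in both genotypes. Past the threshold there were 114 transcripts with a positive interaction, 1.07% of those tested, and 20 with a negative one, 0.188%, or 134 and 1.26% together. Leaving out 1 library gave from 37 higher and 4 lower (without cKO GV replicate 3) to 605 and 46 (without cKO MII replicate 2). An unadjusted p below 0.05 was reached by 1347 (12.7%) with a positive and 534 (5.03%) with a negative estimate. The median interaction over all transcripts was 0.03, and 53.4% of estimates were positive. Without the filter on low values the split moved from 85.1% to 74.0% positive, at 91 higher and 32 lower.

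From GV to MII, 52.2% of the transcripts tested were lower and 25.9% higher in WT at the same threshold, and 51.9% and 24.1% in Psma7 cKO. Of the 114 transcripts with a positive interaction, 107 had lower estimates in eggs than in GV oocytes in both genotypes, by less in Psma7 cKO. Another 5 were lower in WT eggs than in WT GV oocytes and higher in Psma7 cKO eggs than in Psma7 cKO GV oocytes, and 2 were higher in eggs in both, by more in Psma7 cKO. The median transcript of the 114 was at 17.2% of its GV level in WT eggs and at 40.6% in Psma7 cKO eggs. Its genotype difference was -0.04 in GV oocytes and 1.10 in eggs on the log2 scale. The interaction ranged from 0.44 to 3.54 with a median of 1.22, and exceeded 2-fold for 84 transcripts and 4-fold for 10. In eggs the Psma7 cKO libraries lay above the WT libraries without overlap for 106 of the 114, against 11.8% of all transcripts tested, although the contrast itself uses those libraries. In the comparison of eggs alone 109 of them passed with Psma7 cKO higher (12% of all did), and in that of GV oocytes alone 7 passed (0.904% of all were higher and 0.264% lower in Psma7 cKO there). The median distance of the 114 from the WT egg mean was 1.15, 0.79, 1.5 and 0.98 log2 units in the Psma7 cKO egg libraries, and -0.08 to 0.09 in the single WT egg libraries. In the Psma7 cKO GV libraries their median distance from the WT GV mean lay between -0.13 and 0.00. In the Psma7 cKO egg libraries 111, 111, 113 and 112 of the 114 lay above the WT mean, which the choice of the 114 by these libraries largely fixes.

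The interaction followed how far a transcript falls. The transcripts were grouped by the mean MII minus GV change of both genotypes. That change comes from the same libraries and floored values as the interaction, so the trend is a description. The median interaction was 1.29 among the 48 that fell by more than 4 log2 units, 0.85 among the 319 that fell by 3 to 4, 0.43 among 1047 at 2 to 3, and 0.15 among 2115 at 1 to 2. It was 0.01 among the 3268 that fell by less than 1, and -0.06 both among the 3124 that rose by up to 1 and among the 694 that rose by more. In the class that fell by 3 to 4 log2 units, 91.8% of estimates were positive. Without cKO MII replicate 3 the first 3 medians were 0.92, 0.49 and 0.27. By library, the median excess over the WT egg mean, less the difference in GV oocytes, in the class at 3 to 4 was 0.41, 0.14, 1.81 and 0.90 in Psma7 cKO replicates 1 to 4. The excess was thus positive in each library and spread widely, with replicate 3 the highest and replicate 2 the lowest. None of the 48 transcripts with the steepest fall passed the threshold in limma, though 36 had an unadjusted p under 0.05 with a positive estimate, and 14 of the 319 in the next class did.

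**Figure D2:**
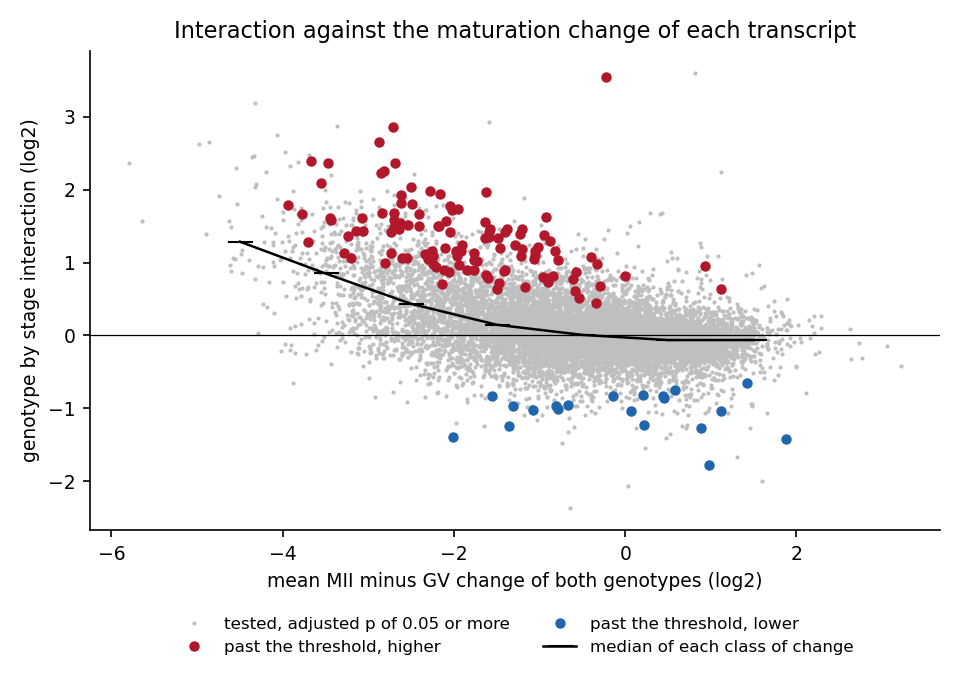
Genotype by stage interaction (log2) of each tested transcript against the mean MII minus GV change of both genotypes (log2), with transcripts past the threshold in red (114 higher) and blue (20 lower) and the median of each class of change as black bars. The class medians climb from -0.06 among transcripts that rose to 1.29 among those with the steepest fall, and the blue points lie mostly among transcripts that changed little or rose.

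The 3′ ends of some transcripts whose interaction passed are printed here, because the fate of a maternal mRNA in maturation depends in part on elements in its 3′ UTR. Each line gives 30 nt of the annotated 3′ UTR from GENCODE release M21 (build GRCm38), 5′ to 3′ on the transcript strand, with the cleavage and polyadenylation signal AATAAA in capitals and, in Rpl5, an overlapping cytoplasmic polyadenylation element TTTTAAT in capitals too. The first 7 had a positive interaction and the last 2, Lcp2 and Ccdc85a, a negative one. Lines could be printed only for transcripts with AATAAA near the annotated 3′ end, so the signal is in each line by selection. The lines are examples and do not stand for all transcripts past the threshold.
Commd9: aaagtagaaagggttggaAATAAAtaacgg
Hint1: atttaaaattctgtgcctAATAAAagacat
Psmd6: cccacttcaacagcatcaAATAAAtatgtc
Ubb: cctctgttaaaaaatgttAATAAAggtttt
Cox7b: tttaactgttgctgaagaAATAAAggctat
Cd9: gaagacaatttgatacatAATAAAagatta
Rpl5: atattaactgaactTTTTAATAAAtgagtc
Lcp2: gggctgctatgaacgctcAATAAAttaaat
Ccdc85a: gttcatcttagcaacagtAATAAAttattt
The windows lie at chr2:101901599-101901628 (Commd9, plus strand), chr11:54870456-54870485 (Hint1, plus), chr14:14112194-14112223 (Psmd6, minus), chr11:62553167-62553196 (Ubb, plus), chrX:106022414-106022443 (Cox7b, plus), chr6:125460274-125460303 (Cd9, minus), chr5:107908965-107908994 (Rpl5, plus), chr11:34092242-34092271 (Lcp2, plus) and chr11:28387160-28387189 (Ccdc85a, minus). Searched on the transcript strand only, TTTTAT or TTTTAAT occurred in the last 100 nt of the 3′ UTR of 17 of 91 transcripts with a positive interaction (18.7%) and of 20.4% of all 8240 with such a window. The share was 8.62% among the 1102 transcripts with a mean fall over 4-fold and a window, and 6 of 44 (13.6%) among those of them with a positive interaction. Among transcripts with a negative interaction it was 5 of 15 (33.3%). AATAAA, which can overlap TTTTAAT, was in the same window of 45.1% of the transcripts with a positive interaction, 54.5% of those that fell over 4-fold and 65.9% of all. A match describes these letters only and is no evidence of a working element.

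Among the 10 largest positive interactions past the threshold, 9 showed a steep fall in WT that was shallower in Psma7 cKO. Rpsa (chr9:120127689-120132369), a 40S ribosomal protein also known as a laminin receptor, held 22.3, 15.9, 26.1 and 25.3 FPKM in WT GV oocytes and 28.2, 27.0, 16.3 and 32.6 FPKM in Psma7 cKO GV oocytes. In eggs it held 0.826, 1.47, 1.65 and 0.937 FPKM in WT and 13.1, 7.32, 15.8 and 7.80 FPKM in Psma7 cKO. The genotypes overlapped in GV oocytes and were wide apart in eggs, where Rpsa kept 5.68% of its GV level in WT and 41.3% in Psma7 cKO. The interaction was 2.86 (SE 0.39, adjusted p = 0.00853). Rpsa has many near-identical processed copies in the mouse genome, so its reads may be divided among them and its level is uncertain.

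Commd9 (chr2:101886247-101901646) encodes a COMM domain protein of the complex that recycles membrane proteins from endosomes. It held 64.1, 68.2, 64.9 and 65.7 FPKM in WT GV oocytes and 74.3, 72.9, 69.2 and 65.0 FPKM in Psma7 cKO GV oocytes. In eggs the values were 2.41, 3.14, 1.84 and 1.87 FPKM in WT and 11.0, 7.47, 23.6 and 13.2 FPKM in Psma7 cKO. The lowest Psma7 cKO egg library thus held more than the highest WT one, and the interaction was 2.39 (SE 0.35, adjusted p = 0.0103). Hint1 (chr11:54866383-54870501) encodes a histidine triad purine phosphoramidase. It held 26.0, 24.3, 37.8 and 32.1 FPKM in WT GV oocytes, 30.1, 26.1, 22.7 and 33.0 FPKM in Psma7 cKO GV oocytes, 0.983, 1.90, 0.849 and 0.922 FPKM in WT eggs and 5.08, 3.40, 10.6 and 5.68 FPKM in Psma7 cKO eggs. It kept 3.97% of its GV level in WT and 20.5% in Psma7 cKO, an interaction of 2.37 (SE 0.41, adjusted p = 0.0148). The 3 WT egg values below 1 FPKM were raised to the floor, which makes the fall in WT look smaller.

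Of the other 6, Speer5-ps1, a transcribed pseudogene, had the smallest adjusted p of all (interaction 2.65, SE 0.29, adjusted p = 0.00098). It held 422, 339, 446 and 417 FPKM in WT GV oocytes and 479.9, 484, 352 and 508 FPKM in Psma7 cKO GV oocytes, then 24.7, 21.6, 21.7 and 19.8 FPKM in WT eggs and 213, 106, 216 and 116 FPKM in Psma7 cKO eggs. Its family has many similar copies, so its level is uncertain. Cyb5a, cytochrome b5, a microsomal electron carrier, fell from 205 ± 44.1 to 13.3 ± 3.73 FPKM in WT and from 214 ± 21.8 to 72.7 ± 42.9 FPKM in Psma7 cKO (mean ± SD, n = 4), an interaction of 2.23 (SE 0.43, adjusted p = 0.0274). Rps13, a 40S protein with pseudogene copies, had an interaction of 2.25 (SE 0.48, adjusted p = 0.0324). BC031181 (2.03, adjusted p = 0.0088) and Gm36808 (2.36, adjusted p = 0.0275) behaved likewise. Tomm40, the channel of the mitochondrial outer membrane import machinery, kept 4.12% of its GV level in WT and 17.6% in Psma7 cKO (2.1, SE 0.48, adjusted p = 0.0444). Among these 9, Rpsa, Speer5-ps1, Commd9, Hint1 and BC031181 passed in all 16 fits that left out 1 library, and Tomm40 passed in 2 of them.

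4930524B15Rik (chr11:31965592-31979651), a gene without an assigned function, had the largest interaction past the threshold. It held 4.06, 5.84, 3.41 and 3.14 FPKM in WT GV oocytes and no more than 0.0931 FPKM in any Psma7 cKO GV library. WT eggs held no more than 0.0743 FPKM, whereas the Psma7 cKO eggs held 0, 3.49, 5.35 and 3.91 FPKM. The transcript was therefore near 0 in Psma7 cKO GV oocytes and at the WT GV level in 3 of 4 Psma7 cKO egg libraries, and replicate 1 held none. The interaction was 3.54 (SE 0.51, adjusted p = 0.00884), and 4.06 with an adjusted p of 9.93e-07 without cKO MII replicate 1. Since 2 groups lie under the floor, the size of this estimate depends on the floor, and it was 9.36 with a floor of 0.1 FPKM.

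**Figure D3:**
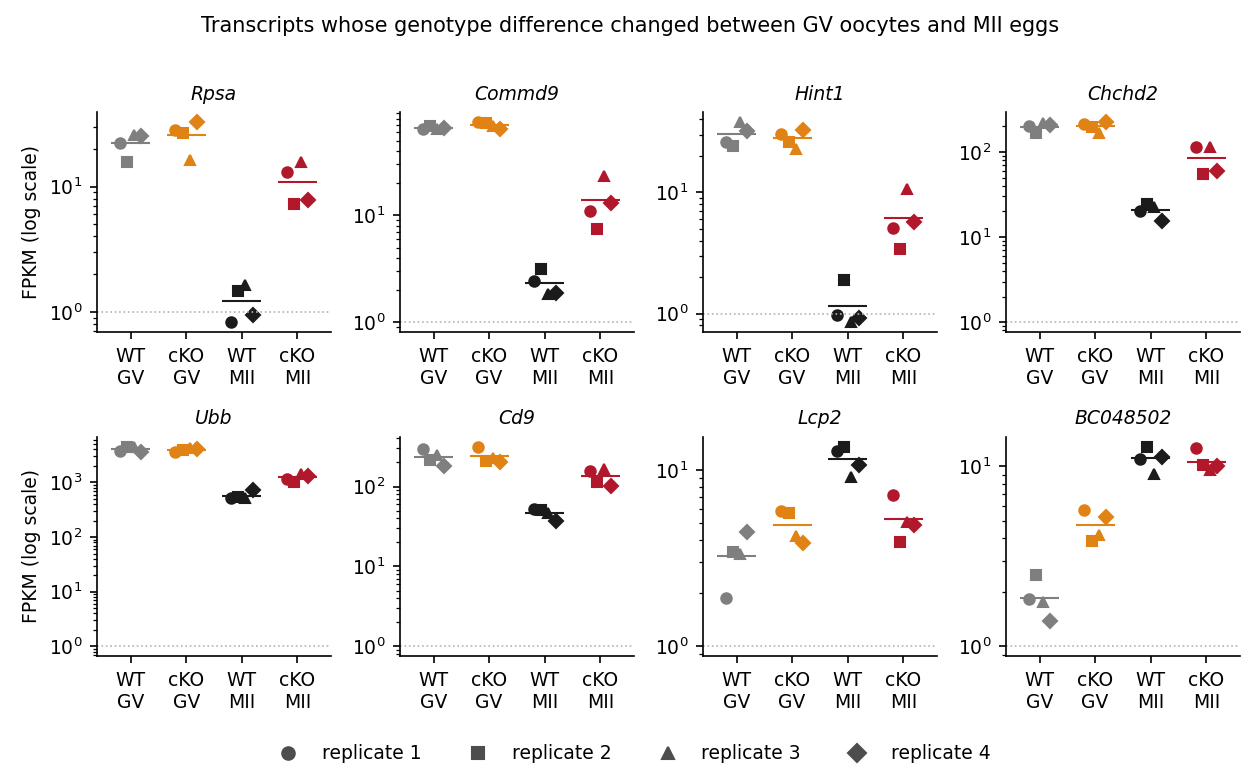
FPKM per library (log axis, a scale of its own in each panel) of 8 transcripts past the threshold in the 4 groups, with horizontal bars at the group mean and a dotted line at 1 FPKM where it falls in the panel. In Rpsa, Commd9, Hint1, Chchd2, Ubb and Cd9 the Psma7 cKO eggs lie above the WT eggs without overlap, in Lcp2 below them, and in BC048502 the genotypes differ in GV oocytes and overlap in eggs.

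Most transcripts of the translation machinery had positive estimates, although few passed singly. Of 30 small ribosomal subunit transcripts tested, 3 passed with a positive interaction (Rpsa, Rps13 and Rps3), none passed with a negative one, and 29 estimates were positive, with a median of 0.88. Of all transcripts tested, 1.07% passed with a positive interaction and 53.4% of estimates were positive. These shares are the background for every list below. They do not allow for how far the transcripts of a list fall. Among all transcripts with a mean fall of 2 to 3 log2 units, 80.8% of estimates were positive (median 0.43). At a fall of 1 to 2 it was 64.8% (median 0.15). Whether a list differed from other transcripts of like fall and length was not tested. Of 46 transcripts of the large subunit, Rpl5 alone passed, 40 estimates were positive and the median was 0.74. The median small subunit change was -2.28 in WT and -1.33 in Psma7 cKO on the log2 scale. The members of a list share the same libraries, so their signs are not independent. Between libraries of a group the list median had an SD of 0.47 log2 units for the small and 0.48 for the large subunit. Rps3, a 40S protein at the mRNA entry site, held 36.6, 26.1, 41.5 and 38.7 FPKM in WT GV oocytes and 38.6, 40.0, 28.9 and 42.0 FPKM in Psma7 cKO GV oocytes. In eggs it held 4.17, 5.64, 4.91 and 3.96 FPKM in WT and 13.1, 9.17, 22.7 and 13.0 FPKM in Psma7 cKO, without overlap (interaction 1.5, SE 0.32, adjusted p = 0.0324). Rpl5, which binds 5S rRNA, fell from 151 ± 22.4 to 26.4 ± 2.44 FPKM in WT and from 139 ± 12.7 to 53.4 ± 14.8 FPKM in Psma7 cKO (1.09, SE 0.23, adjusted p = 0.0324). Rpl23a had a larger estimate, 3.19, that did not pass (adjusted p = 0.0508). Ribosomal protein genes have many processed copies, so the level of any one of them is uncertain.

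Most mitochondrial transcripts had positive estimates as well. Of 76 transcripts of the respiratory chain and ATP synthase, 4 passed with a positive interaction (1.07% of all did) and none with a negative one. The estimates of 71 were positive, and the median was 0.73. The median change of the 76 from GV to MII was -1.84 in WT and -0.98 in Psma7 cKO. Uqcrb, a subunit of complex III, held 51.9, 45.3, 71.3 and 48.3 FPKM in WT GV oocytes, 63.1, 43.0, 51.4 and 68.0 FPKM in Psma7 cKO GV oocytes, 7.56, 7.07, 7.22 and 8.44 FPKM in WT eggs and 22.8, 14.3, 48.5 and 29.3 FPKM in Psma7 cKO eggs (interaction 1.73, SE 0.38, adjusted p = 0.0363). Ndufb5, of complex I, kept 10.2% of its GV level in WT and 29.2% in Psma7 cKO (1.51, SE 0.31, adjusted p = 0.0324). Cox7b, of complex IV, kept 23.1% and 61.6% (1.42, SE 0.25, adjusted p = 0.0148) and passed in all 16 fits that left out 1 library, whereas Ndufb5 passed in 8, Mrpl2 in 6 and Uqcrb in 5. Of 72 mitochondrial ribosomal transcripts, Mrpl2 passed (0.80, SE 0.18, adjusted p = 0.0357), 64 estimates were positive and the median was 0.65. That is 1 call in 72, near the 1.07% of all transcripts, while 88.9% of estimates were positive against 53.4% of all. Of 24 import transcripts, Tomm40 alone passed, 1 call against 1.07% of all, and the median was 0.46.

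Several other mitochondrial transcripts passed, and 3 of them were chosen after their values were seen. Chchd2, an intermembrane space protein, held 201, 165, 218 and 206 FPKM in WT GV oocytes, 214, 194, 166 and 222 FPKM in Psma7 cKO GV oocytes, 20.1, 24.6, 22.6 and 15.6 FPKM in WT eggs and 114, 54.7, 115 and 59.9 FPKM in Psma7 cKO eggs. The genotypes overlapped in GV oocytes and not in eggs (interaction 1.98, SE 0.31, adjusted p = 0.0112). Its paralog Chchd10 kept 20.2% of its GV level in WT and 54.1% in Psma7 cKO (1.42, SE 0.26, adjusted p = 0.0199). Cisd1, an iron-sulfur protein of the outer membrane, kept 13.6% and 44.9% (1.73, SE 0.27, adjusted p = 0.0112). All 3 passed in each of the 16 fits that left out 1 library.

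Subunits of the proteasome itself showed positive estimates, of which 2 passed, both in the 19S particle. Psmd6, a lid subunit, held 38.7, 41.7, 38.2 and 44.2 FPKM in WT GV oocytes and 41.5, 39.7, 41.0 and 44.2 FPKM in Psma7 cKO GV oocytes. In eggs it held 3.43, 4.06, 3.02 and 4.04 FPKM in WT and 15.6, 5.56, 17.8 and 9.74 FPKM in Psma7 cKO (interaction 1.58, SE 0.36, adjusted p = 0.0410). Psmd8, another lid subunit, kept 17.8% of its GV level in WT and 32.6% in Psma7 cKO (0.87, SE 0.18, adjusted p = 0.0324). Psmd6 passed in 3 and Psmd8 in 7 of the 16 fits that left out 1 library. Those 2 calls were among 18 transcripts of the 19S particle, against 1.07% of all. In that particle 16 estimates were positive and the median was 0.31. None of 13 transcripts of the 20S core other than Psma7 passed in limma, although all 13 estimates were positive (median 0.55) and 7 had an unadjusted p under 0.05. Psmb7 (2.52, adjusted p = 0.0595) and Psmb4 (1.88, adjusted p = 0.0556), catalytic and structural β subunits, lay nearest the threshold, and Psmb6 entry 1 (0.02) and Psma2 (0.14) had the smallest estimates. The level of Psma2, an α subunit, was higher in eggs than in GV oocytes in both genotypes, by 1.42 in WT and 1.56 in Psma7 cKO on the log2 scale. None of 12 assembly factors and activators passed in limma (4 at an unadjusted p under 0.05, all higher, median 0.12), among them Pomp, the maturation factor of the core (0.42, adjusted p = 0.218).

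Ubb, a polyubiquitin gene (chr11:62551171-62553213), was one of the most abundant transcripts past the threshold. It held 3703, 4529, 4519 and 3639 FPKM in WT GV oocytes and 3654, 3837, 4242 and 4021 FPKM in Psma7 cKO GV oocytes. In eggs it held 518, 549, 515 and 717 FPKM in WT and 1161, 1019, 1448 and 1337 FPKM in Psma7 cKO. The 2 genotypes overlapped in GV oocytes and not in eggs, where Ubb kept 14.0% of its GV level in WT and 31.3% in Psma7 cKO (interaction 1.16, SE 0.18, adjusted p = 0.0112), and it passed in all 16 fits that left out 1 library. Of 8 transcripts of ubiquitin and its activating enzymes, Ubb alone passed and the median was -0.06. In limma 3 of the 8 were higher at an unadjusted p under 0.05. The largest estimate of the 8 was 2.08, that of Rps27a, which did not pass (adjusted p = 0.147). The ubiquitin-activating enzyme Uba1 had an estimate of -0.15 and did not pass.

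Stress response lists had medians nearer 0, and their transcripts also fell little in WT (median -0.25 for heat shock and -0.37 for integrated stress response genes). In the heat shock list the median of 16 transcripts was -0.01 and Dnaja1, an HSP40 co-chaperone, alone passed (0.66, SE 0.13, adjusted p = 0.0308). It fell from 227 ± 10.0 to 80.4 ± 2.84 FPKM in WT and from 219 ± 18.9 to 123 ± 17.9 FPKM in Psma7 cKO. Among 16 targets of the integrated stress response the median was -0.17, and Phgdh, the first enzyme of serine synthesis, alone passed. Phgdh held 33.8, 36.1, 21.7 and 26.7 FPKM in WT GV oocytes, 33.2, 36.1, 32.4 and 30.8 FPKM in Psma7 cKO GV oocytes, 0.994, 0.914, 0.933 and 1.05 FPKM in WT eggs and 2.51, 2.72, 6.55 and 5.77 FPKM in Psma7 cKO eggs (interaction 1.79, SE 0.36, adjusted p = 0.0308). It was thus a transcript that fell steeply in both genotypes. The estimates of Atf4 (0.53) and Chac1 (-0.56), a regulator and a target of that response, did not pass. None of 19 transcripts of the endoplasmic reticulum unfolded protein response passed in limma (3 higher and 1 lower at an unadjusted p under 0.05, median -0.10).

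Mt1, which encodes a metal-binding metallothionein, was far higher in Psma7 cKO than in WT at both stages. It held 170.3, 139.5, 145 and 214 FPKM in Psma7 cKO GV oocytes and 51.9, 33.2, 113 and 63.0 FPKM in Psma7 cKO eggs. WT libraries held at most 0.376 FPKM. The Psma7 cKO eggs were below the Psma7 cKO GV oocytes without overlap, at 35.9% of them, and the interaction of -1.48 (SE 0.36) missed the threshold (adjusted p = 0.0513). It passed without cKO MII replicate 3, at -1.79 with an adjusted p of 0.00435, and without cKO MII replicate 2, at -1.20 with an adjusted p of 0.0209. It passed in none of the other fits that left out 1 library. Across 10 other settings it passed in 3, and the largest adjusted p in limma was 0.354. Every WT value lay under the floor of 1 FPKM. On that scale the WT change is therefore 0, and the interaction is the change within Psma7 cKO alone. None of 20 transcripts of oxidative stress and metallothioneins passed in limma (6 higher and 1 lower at an unadjusted p under 0.05), with a median of 0.24.

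Transcripts of the enzymes that clear maternal mRNA had a median change from GV to MII of -0.04 in WT and 0.04 in Psma7 cKO, close to 0 in both. None of 31 transcripts of deadenylation and mRNA decay passed in limma, 1 had an unadjusted p under 0.05, and the median was -0.02. Btg4, the adaptor of CCR4-NOT in maturation, had an estimate of -0.09, its catalytic partners Cnot7 and Cnot6l -0.02 and -0.10, and the scaffold Cnot1 0.14. Among 23 transcripts of mRNA storage and cytoplasmic polyadenylation the median was 0.05 and Cpsf4l, a relative of a subunit that reads the polyadenylation signal, alone passed (1.37, SE 0.30, adjusted p = 0.0368). Cpsf4l kept 6.61% of its GV level in WT and 17.1% in Psma7 cKO. None of 22 maternal transcripts known to be activated in maturation passed in limma (1 at an unadjusted p under 0.05), their estimates ran from -0.35 to 0.39, and their median change from GV to MII was 0.42 in both genotypes. None of 44 meiotic cell cycle transcripts passed in limma either (3 higher and 1 lower at an unadjusted p under 0.05, median 0.03), with Ccnb1, cyclin B1, at -0.10 and Pttg1, securin, at -0.10.

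Transcripts that build the growing oocyte were divided. Of 23 transcripts of the zona pellucida and oocyte growth 3 passed with a positive interaction, against 1.07% of all, and the median was 0.21. Cd9, a tetraspanin of the egg surface needed for sperm fusion, held 291, 216, 246 and 182 FPKM in WT GV oocytes, 316, 209, 230.4 and 205 FPKM in Psma7 cKO GV oocytes, 52.7, 51.5, 47.3 and 36.7 FPKM in WT eggs and 158, 112, 166 and 102 FPKM in Psma7 cKO eggs. It kept 20.3% of its GV level in WT and 55.7% in Psma7 cKO (interaction 1.46, SE 0.27, adjusted p = 0.0184). Zp3, a zona pellucida glycoprotein and the gene whose promoter drives the Cre transgene, held 3949, 4016, 4054 and 3887 FPKM in WT GV oocytes and 4436, 4020, 4104 and 4025 FPKM in Psma7 cKO GV oocytes. In eggs Zp3 held 406, 487, 411 and 321 FPKM in WT and 781, 722, 1314 and 974 FPKM in Psma7 cKO (1.14, SE 0.22, adjusted p = 0.0234). Figla, a transcription factor that switches on the zona genes, kept 8.57% and 27.4% (1.68, SE 0.38, adjusted p = 0.0425). Zp1 (0.76) and Zp2 (0.89) did not pass (adjusted p = 0.101 and 0.10). Gdf9 (-0.16) and Bmp15 (0.15), growth factors that oocytes send to cumulus cells, did not pass either. None of 19 transcripts of the subcortical maternal complex and oocyte Nlrp family passed in limma (4 higher and 1 lower at an unadjusted p under 0.05), with a median of 0.20.

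In the compartments that store and digest proteins, 2 of 28 lysosomal and endolysosomal transcripts passed with a positive interaction, against 1.07% of all (median 0.15). Atp6v0c, the proton-carrying ring subunit of the vacuolar ATPase, fell from 90.8 ± 9.99 to 8.42 ± 1.60 FPKM in WT and from 97.6 ± 14.8 to 26.6 ± 11.1 FPKM in Psma7 cKO (interaction 1.49, SE 0.33, adjusted p = 0.0396). Rab7, a late endosome GTPase, had the smallest interaction past the threshold, 0.44 (SE 0.10, adjusted p = 0.0461). It held 241, 269.9, 238 and 262 FPKM in WT GV oocytes, 229.9, 221, 225 and 216 FPKM in Psma7 cKO GV oocytes, 167, 158, 174 and 186 FPKM in WT eggs and 220.5, 191, 194 and 215 FPKM in Psma7 cKO eggs, so that it was lower in Psma7 cKO at the first stage and higher at the second. Atp6v0c passed in 4 and Rab7 in 2 of the 16 fits that left out 1 library. None of 25 autophagy transcripts passed in limma (3 at an unadjusted p under 0.05, median 0.08).

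In RNA processing and transcription, 2 of 25 spliceosomal Sm and LSm transcripts passed with a positive interaction, against 1.07% of all. These were Lsm3 (1.16, SE 0.25, adjusted p = 0.0338) and Lsm6 (1.02, SE 0.20, adjusted p = 0.0269), subunits of the LSm ring. In that list 22 estimates were positive, with a median of 0.34. Lsm6 held 2.79, 2.90, 2.83 and 2.55 FPKM in WT eggs and 6.04, 5.03, 7.70 and 4.40 FPKM in Psma7 cKO eggs, against 12.0 to 14.5 FPKM in the 8 GV libraries. Of 40 RNA polymerase II and Mediator transcripts Med28 alone passed (0.73, SE 0.16, adjusted p = 0.0404), and the median was 0.12. Kpna2, an importin that carries proteins into the nucleus, chosen after its values were seen, fell from 1121 ± 64.5 to 281 ± 5.29 FPKM in WT and from 1102 ± 79.6 to 484 ± 87.5 FPKM in Psma7 cKO (0.79, SE 0.15, adjusted p = 0.0199). A list of 6 transcripts had positive estimates throughout, with a median of 1.49. These were examples that the study itself chose on these libraries, so they are no independent evidence of a direction. Tomm40 and Cpsf4l passed, and Gm9844 (1.75, adjusted p = 0.0537), Rpl39 (1.60, adjusted p = 0.117), Cdk1 (1.22, adjusted p = 0.146) and Dppa4 (1.18, adjusted p = 0.165) did not. Once cKO MII replicate 2 was left out, each of these 4 passed (adjusted p 0.000163 to 0.0151). That fit had 605 positive calls over all transcripts, against 114 with all 16 libraries. Each of the 4 passed in only 1 of the 16 fits that left out 1 library. Without cKO MII replicate 3 their adjusted p in limma was 0.0656 to 0.269.

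**Figure D4:**
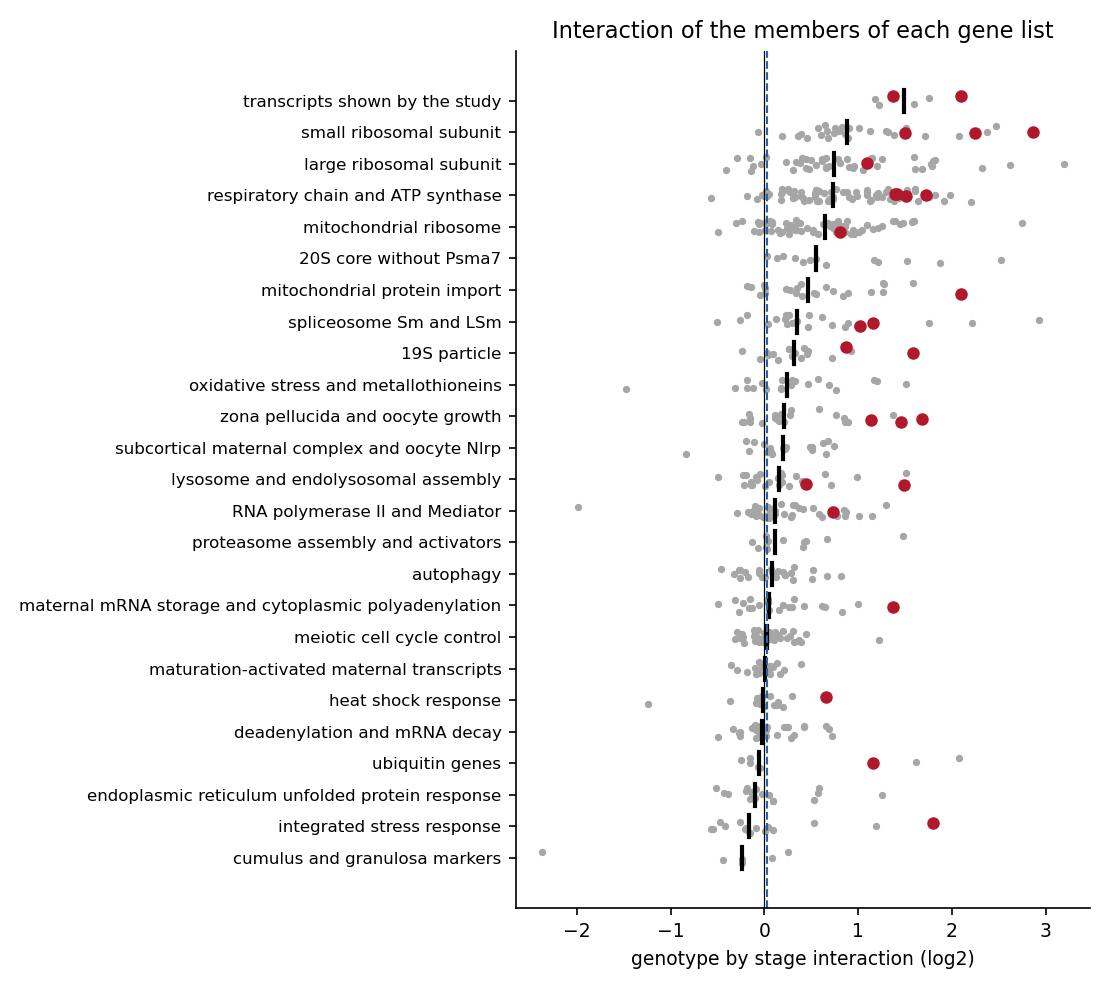
Interaction (log2) of the members of 25 gene lists, as grey points or, past the threshold, red points, with the list median as a black bar, 0 as a thin line and the median of all tested transcripts (0.03) as a dashed line. The medians of ribosomal and mitochondrial lists lie between 0.46 and 0.88, and those of the decay, cell cycle, heat shock, integrated stress and unfolded protein lists within 0.17 of 0.

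The 20 transcripts with a negative interaction included many near the floor, and 10 of them were still past the threshold with a floor of 0.1 FPKM and 8 with 1 FPKM added. Of the 20, 13 differed more between genotypes in GV oocytes than in eggs, and in GV oocytes the Psma7 cKO libraries lay above WT without overlap for 13, against 4.12% of all transcripts tested. The other 7 differed more in eggs, where Psma7 cKO lay below WT without overlap for 7, against 6.28% of all. In the comparison of GV oocytes alone 13 of the 20 passed (0.904% of all were higher and 0.264% lower in Psma7 cKO there). In the comparison of eggs alone 7 passed as lower in Psma7 cKO (2.07% of all did). Both comparisons use the same libraries as the contrast. By their estimates from GV to MII, 8 were lower in eggs in both genotypes, by more in Psma7 cKO, 8 were higher in both, by less in Psma7 cKO, and 4 were higher in WT eggs and lower in Psma7 cKO eggs. Their median distance from the WT GV mean was 0.67 to 0.85 log2 units in the Psma7 cKO GV libraries. Low abundance was common, since 13 of the 20 had a mean under 5 FPKM, against 6 of the 114.

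Lcp2, an adaptor of immune receptor signalling (chr11:34046920-34092295), had the most negative interaction past the threshold. It held 1.87, 3.41, 3.32 and 4.44 FPKM in WT GV oocytes, 5.84, 5.69, 4.22 and 3.83 FPKM in Psma7 cKO GV oocytes, 12.8, 13.6, 9.08 and 10.7 FPKM in WT eggs and 7.18, 3.91, 5.06 and 4.86 FPKM in Psma7 cKO eggs. It rose to 366% of its GV level in WT, stood at 106% in Psma7 cKO, and the interaction was -1.78 (SE 0.35, adjusted p = 0.0280). Ccdc85a, a coiled-coil protein gene, likewise held 4.22, 3.97, 4.44 and 4.69 FPKM in WT eggs and 2.47, 1.96, 1.65 and 2.23 FPKM in Psma7 cKO eggs, with 2.06 to 3.25 FPKM in the 8 GV libraries (-1.23, SE 0.22, adjusted p = 0.0156). B3gnt2, which extends polylactosamine chains on glycoproteins, held 41.1 ± 9.18 and 33.3 ± 3.18 FPKM in WT GV oocytes and eggs and 55.9 ± 8.68 and 22.8 ± 3.46 FPKM in Psma7 cKO (-1.01, SE 0.21, adjusted p = 0.0328).

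Other transcripts were already high in Psma7 cKO GV oocytes and overlapped WT in eggs. BC048502 held 1.83, 2.49, 1.76 and 1.38 FPKM in WT GV oocytes and 5.75, 3.83, 4.14 and 5.24 FPKM in Psma7 cKO GV oocytes, and 11.0, 12.9, 9.06 and 11.3 FPKM in WT eggs and 12.7, 10.2, 9.57 and 10.1 FPKM in Psma7 cKO eggs (interaction -1.42, SE 0.25, adjusted p = 0.0180). Cd59a, a membrane inhibitor of complement, held 2.16, 2.66, 1.96 and 2.53 FPKM in WT GV oocytes and 5.47, 3.6, 3.67 and 4.92 FPKM in Psma7 cKO GV oocytes, with overlap in eggs (-1.26, SE 0.22, adjusted p = 0.0148). Tnfsf13b, the B cell activating factor BAFF, held 5.25 ± 0.834 and 9.43 ± 0.663 FPKM in WT and Psma7 cKO GV oocytes and 16.5 ± 3.62 and 14.4 ± 2.35 FPKM in WT and Psma7 cKO eggs (-1.04, SE 0.23, adjusted p = 0.0368). Trpa1, a cation channel, had an interaction of -1.04 (SE 0.22, adjusted p = 0.0324). The Psma7 cKO minus WT difference in eggs was -0.06 for BC048502, -0.36 for Cd59a, -0.18 for Tnfsf13b and -0.34 for Trpa1 on the log2 scale. BC048502, Cd59a and Ccdc85a passed in all 16 fits that left out 1 library, and no other transcript with a negative interaction did.

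Chst4, a sulfotransferase gene, Gm33251 and LOC102633893 were higher in Psma7 cKO GV oocytes and below or near the floor in all eggs. Chst4 held 2.53, 3.01, 1.44 and 3.41 FPKM in WT GV oocytes and 6.15, 6.73, 8.25 and 5.35 FPKM in Psma7 cKO GV oocytes, and no more than 0.505 FPKM in any egg library (interaction -1.40, SE 0.29, adjusted p = 0.0324). Gm33251 (-1.25, adjusted p = 0.0449) and LOC102633893 (-1.03, adjusted p = 0.0335) reached at most 1.19 and 1.04 FPKM in eggs. For these 3 the interaction restates the difference in GV oocytes, because the floor leaves the genotypes nearly equal in eggs. With a floor of 0.1 FPKM their adjusted p was 0.547, 0.704 and 0.942.

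A small number of transcripts with a positive interaction were low in Psma7 cKO GV oocytes and reached or passed the WT level in eggs, and those named here besides 4930524B15Rik were chosen after their values were seen. Asgr2 entry 1, an asialoglycoprotein receptor subunit, held 16.6, 13.7, 15.9 and 16.9 FPKM in WT GV oocytes and 6.00, 10.5, 5.48 and 7.82 FPKM in Psma7 cKO GV oocytes, then 2.91, 3.26, 1.40 and 3.30 FPKM in WT eggs and 4.76, 4.12, 5.96 and 3.89 FPKM in Psma7 cKO eggs. The order of the genotypes was reversed between the stages, without overlap at either (interaction 1.97, SE 0.36, adjusted p = 0.0184). The 2 that rose in both genotypes were Ctdspl, a small phosphatase, and Tcl1b5 entry 2, an oocyte and embryo gene of the Tcl1 family. Ctdspl rose from 2.45 ± 0.112 to 3.36 ± 0.175 FPKM in WT and from 1.42 ± 0.224 to 3.72 ± 0.40 FPKM in Psma7 cKO (0.95, SE 0.17, adjusted p = 0.0184). Tcl1b5 entry 2 rose from 80.3 ± 3.35 to 139.6 ± 8.56 FPKM in WT and from 58.0 ± 8.21 to 156 ± 16.2 FPKM in Psma7 cKO (0.64, SE 0.14, adjusted p = 0.0394).

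The transcripts with a positive interaction were short, and transcript length was not used by the rule. Their median annotated length was 1387 nt, against 2653 nt for all transcripts tested and 1996 nt for those with a mean fall over 4-fold, and the median 3′ UTR was 376.5 nt against 888 and 507 nt. Their median level in GV oocytes, which is not independent of the rule, was 47.9 FPKM against 8.51 for all and 17.8 for those that fell over 4-fold. The 20 with a negative interaction had a median length of 2349 nt and a median GV level of 3.04 FPKM. Annotated lengths were found for 107 of the 114 and 18 of the 20. Among transcripts with a mean fall over 4-fold, the median interaction was 1.09 for 86 of at most 700 nt, 1.05 for the next 186, up to 1200 nt, 0.67 for the next 392, up to 2000 nt, 0.32 for the next 462, up to 3500 nt, and 0.26 for 197 longer ones. In the shortest class the median excess over the WT egg mean, less the difference in GV oocytes, was 0.60, 0.29, 2.25 and 1.33 in Psma7 cKO egg replicates 1 to 4, and in the longest class it was 0.24, 0.03, 0.53 and 0.07. The excess was larger for the shortest than for the longest class in each of the 4 libraries, and most of all in replicates 3 and 4. The part of RNA quality or library preparation in this was not tested.

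**Figure D5:**
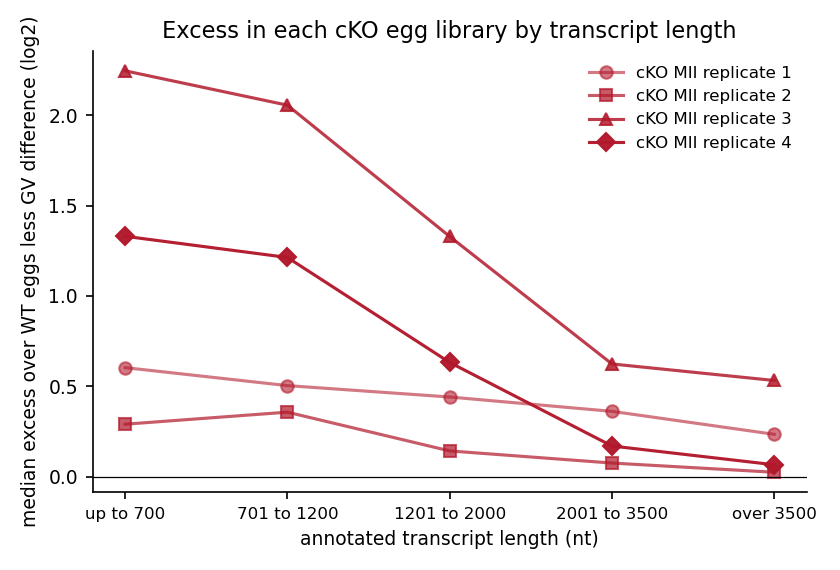
Median excess over the WT egg mean, less the genotype difference in GV oocytes (log2), in each Psma7 cKO egg library, for transcripts with a mean fall over 4-fold, by class of annotated transcript length (nt). All 4 lines end lower than they begin, replicate 3 from 2.25 to 0.53 and replicate 2 from 0.29 to 0.03.

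By position, chromosome 11 held 13 transcripts with a positive and 6 with a negative interaction among 728 tested there, or 2.61%, against 1.26% of all transcripts tested. Chromosome 5 held 13 and 2 among 677 (2.22%), chromosome X 2.15% and chromosome 18 2.03%. The 6 were 6 of the 20 with a negative interaction. Lcp2, Ccdc85a, B3gnt2, 4930524B15Rik and Rhbdf1, an inactive rhomboid protease gene with a positive interaction of 1.09 (SE 0.23, adjusted p = 0.0324), lay between chr11:22759738 and chr11:34092295. The other 3 with a negative interaction were Proca1 (-0.75), Tmem92 (-0.97) and Tmem101 (-0.96), farther along, and these and Rhbdf1 were chosen after their values were seen. With a floor of 0.1 FPKM Tmem101 turned to 0.88 (adjusted p = 0.451) and Tmem92 stood at -0.19 (adjusted p = 0.873), so 2 of the 6 rest on the floor of 1 FPKM. Of 273 windows of 10 Mb, 1 held more than 1 transcript with a negative interaction, and it was the one with B3gnt2 and Ccdc85a. The windows were looked at after the positions were known, so these counts describe where the transcripts lie.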

How the data were processed

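RNA-seq of GV oocytes and MII eggs was analysed in 16 libraries of 4 groups (WT GV, cKO GV, WT MII, cKO MII), with genotype, stage and replicate number taken from the sample labels. The deposited values are FPKM that the authors made with Cufflinks 2.2.1 after TopHat2 2.1.1 on mm10, tools and build as listed in the submitters' processing notes. The annotation and the strand setting are not given in the sources used here, so antisense partners and near-identical copies may share reads. The table holds 28618 entries for 27987 names. Entries of a name listed more than once (579 names) were kept apart as "entry 1" and "entry 2". It holds 0 ERCC entries, so no scaling to spike-in RNA was made. FPKM give no exact counts, and no counting intervals were attached.

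Values below 1 FPKM were set to 1, log2 was taken, and the 10615 entries whose mean over all 16 libraries reached 1 FPKM were fitted in limma 3.58.1 (R 4.3.3), with 1 term per group, an intensity trend and 12 residual degrees of freedom. A fold change is on that floored scale and understates changes of low transcripts. Adjusted p is Benjamini-Hochberg over all entries tested, two-sided, with a threshold of 0.05. Python 3.11.15 was used for positions, lengths, sequences and figures, with GENCODE release M21 (GRCm38, the same assembly as mm10) matched by symbol for 91.7% of the tested entries. The fit and the depth estimate were tested on simulated data.

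Transcripts named in the text are the 10 with the largest and the 10 with the smallest estimate among those past the threshold, Psma7, Mt1, the 6 that the study shows, and in each of 25 gene lists up to 3 members past the threshold per direction. Others are marked as chosen after their values were seen. The members and lists were chosen with earlier results of these data known. Medians of lists are descriptions without a test, read beside the median of all transcripts. Replicate numbers were not treated as pairs. The alternatives were another scaling, a floor of 0.1 FPKM, 1 FPKM added, no filter on low values or one at a mean of 5 FPKM, no intensity trend, weights per group or per library, the replicate number as a block, entries summed by name, an added 2-fold limit, and each library left out in turn.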

Additional observations from a re-analysis of the deposited data

Results flagged for a closer look

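The interaction is itself a tested difference between the stages in the effect of genotype, so each transcript past the threshold (limma, Benjamini-Hochberg adjusted p under 0.05) is listed here with its estimate on the log2 scale. There were 114 with a positive and 20 with a negative estimate. The largest positive estimates were those of 4930524B15Rik (3.54), Rpsa (2.86), Speer5-ps1 (2.65), Commd9 (2.39), Hint1 (2.37), Gm36808 (2.36), Rps13 (2.25), Cyb5a (2.23), Tomm40 (2.1) and BC031181 (2.03). The most negative were those of Lcp2 (-1.78), BC048502 (-1.42), Chst4 (-1.40), Cd59a (-1.26), Gm33251 (-1.25), Ccdc85a (-1.23), Trpa1 (-1.04), Tnfsf13b (-1.04), LOC102633893 (-1.03) and B3gnt2 (-1.01).

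From the gene lists came Phgdh (1.79), Uqcrb (1.73), Figla (1.68), Psmd6 (1.58), Ndufb5 (1.51), Rps3 (1.5), Atp6v0c (1.49), Cd9 (1.46), Cox7b (1.42), Cpsf4l (1.37), Ubb (1.16), Lsm3 (1.16), Zp3 (1.14), Rpl5 (1.09), Lsm6 (1.02), Psmd8 (0.87), Mrpl2 (0.80), Med28 (0.73), Dnaja1 (0.66) and Rab7 (0.44). Those chosen after their values were seen were Chchd2 (1.98), Asgr2 entry 1 (1.97), Cisd1 (1.73), Chchd10 (1.42), Ctdspl (0.95), Kpna2 (0.79), Tcl1b5 entry 2 (0.64), Proca1 (-0.75), Tmem101 (-0.96) and Tmem92 (-0.97).

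On the floored log2 scale, single libraries lay far from the other 3 of their group in 16 of 219 groups tested by Dixon's criterion (7.31%), where chance gives about 1 in 20. Libraries above the other 3 were cKO GV replicate 4 for Gm36808 (28.1 FPKM), WT GV replicate 3 for Cyb5a (271 FPKM) and Rpl39 (15.2 FPKM), and WT MII replicate 2 for Gm36808 (2.70 FPKM). In 8 further groups a single library exceeded the floor of 1 FPKM, which fixes the distance of the other 3. These were Hint1 in WT MII replicate 2 (1.90 FPKM), Rpl39 in WT MII replicate 3 (1.29 FPKM), Cdk1 in WT MII replicate 2 (1.12 FPKM), Phgdh in WT MII replicate 4 (1.05 FPKM), Med11 entry 1 in WT GV replicate 2 (1.12 FPKM), Gm33251 in cKO MII replicate 4 (1.19 FPKM), LOC102633893 in cKO MII replicate 1 (1.04 FPKM) and Tmem101 in cKO MII replicate 1 (1.04 FPKM). Libraries below the other 3 were cKO GV replicate 3 for Speer5-ps1 (352 FPKM), cKO GV replicate 4 for Kpna2 (983 FPKM), WT MII replicate 3 for Asgr2 entry 1 (1.40 FPKM) and cKO MII replicate 2 for Dppa4 (0.868 FPKM).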

How the results depend on the processing

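Directions were kept by all 58 named transcripts under 10 other settings and in 16 fits that each left out 1 library, wherever they were tested, except Med11 entry 1, which was -1.60 (adjusted p = 0.0524) with entries summed by name, and Tmem101, which was 0.88 (adjusted p = 0.451) with a floor of 0.1 FPKM. The same floor took Chst4 to -0.94 (adjusted p = 0.547), Gm33251 to -0.51 (0.704), LOC102633893 to -0.14 (0.942) and Tmem92 to -0.19 (0.873), and all 5 hold libraries below 1 FPKM. The number of calls was less stable than the directions. Against 114 higher and 20 lower there were 75 and 8 with 1 FPKM added, 246 and 57 with weights per library, 192 higher with a mean of at least 5 FPKM, 32 lower with no filter on low values, and 10 lower past the 2-fold limit as well. With the replicate number as a block there were 53 and 7, of which 52 and 4 were among the 114 and 20, and 25 of 50 named calls were lost. The block rests on a number alone, since the deviations of same-numbered libraries correlated at -0.496 to 0.285, over 0.1 in 6 of 24 pairs, with 5 of 24 libraries closest to their own number. Leaving out 1 library gave 37 (without cKO GV replicate 3) to 605 higher (without cKO MII replicate 2) and 4 to 46 lower (the same libraries), and all 114 and all 20 were among the calls without cKO MII replicate 2. Higher calls were 38 to 57 without WT GV replicates 1, 3 or 4, 70 and 38 without cKO GV replicates 1 or 2, 74 without cKO GV replicate 4, and 41 to 42 without WT MII replicates 1, 3 or 4, with 1 library fewer by construction. In these 16 fits 31 of the 114 and 3 of the 20 always passed. Without cKO MII replicate 3, limma left Figla (adjusted p = 0.0550), Med28 (0.0653), Gm33251 (0.0666), Proca1 (0.0663) and Tmem92 (0.0534) short of the threshold. Figla, Med28, Gm33251, Tnfsf13b, Tcl1b5 entry 2 and Tmem92 passed in 4 of the 16 fits, and Proca1 in 5. Psma7 was 1.80 (adjusted p = 0.0310) with weights per library, and from 1.41 when cKO MII replicate 4 was left out to 2.13 when cKO MII replicate 1 was. List medians kept their value within the spread between libraries in 648 cases and moved further in 2, both of mRNA storage and cytoplasmic polyadenylation, at 0.16 with a floor of 0.1 FPKM and 0.13 without WT GV replicate 2. That limit is loose, because the spread was as large as some medians. It was 0.56 beside a median of 0.55 for the 20S core, and 0.39 beside -0.17 for the integrated stress response. No setting moved the median of all transcripts by over 0.1. FPKM hold no counts, and at 1 FPKM a transcript of median length rests on 27.9 to 41.4 fragments.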
